A study of Aspergillus niger with 16 samples.

Results

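The change between 8 h and 24 h on sugar beet pectin was measured by RNA sequencing in the reference strain of *Aspergillus niger*, a filamentous fungus that lives on plant material and is used to make enzymes. All libraries labelled as this strain on pectin at either time were taken, which gave 4 of the 16 libraries of the series, 2 at each time. The strain was CBS 141257, labelled as the reference, and the other strain of the series was CBS 141258, which lacks *gaaR* (ΔgaaR). Mycelium of both strains grew for 16 h in complete medium with 2% fructose, was washed, and was then moved to minimal medium of pH 6 with 1% pectin at 30 °C and 250 rpm. The deletion strain at the same times gave another 4 libraries and is used here only to show where the reference differed. The 2 h pectin libraries of the reference are given beside the others as levels, with no test. The rest of the series was both strains after 2 h on 25 mM galacturonic acid and the deletion strain after 2 h on pectin. All 16 libraries entered the fit behind the tests. Each group therefore stands for 1 strain of each genotype, and the labels do not say whether the replicates were separate cultures.

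Pectin is a family of plant cell wall polysaccharides. Its smooth backbone, homogalacturonan, is a chain of D-galacturonic acid, and its branched parts hold rhamnose, xylose, arabinose and galactose. Fungi cut the backbone with polygalacturonases, pectin lyases and methylesterases and trim the side chains with arabinan- and galactan-degrading enzymes. The free galacturonic acid is taken up and broken down in the cell by a short reductive pathway. In *A. niger*, GaaR is the activator of this pathway and of many of the pectin-degrading enzymes, and GaaX is its repressor.

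The 4 libraries held between 3604653 and 4574019 reads, and between 10349 and 10694 genes were listed in each. Replicates correlated across genes at 0.9847 at 8 h and 0.9756 at 24 h on the log2(FPKM + 1) scale, where FPKM is the read number scaled by coding length and by library total. Both pairs differed by more than sampling noise, with a chi-square per degree of freedom of 6.33 at 8 h and 38.84 at 24 h. The 24 h pair lay further apart, with 622 of 8463 genes (7.3%) over 2-fold apart between libraries, against 165 of 7847 (2.1%) at 8 h. *gaaR* was read in every reference library, at 58.1 to 94.9 FPKM at 8 h and 24 h. In the deletion strain it was listed at 3.01 and 2.69 FPKM at 8 h and had 0 reads in both 24 h libraries. No source used here pairs a locus tag with the markers of spores and spore-bearing cells, so those cells were not analysed here. In such bulk samples, fewer cells of a kind and less RNA per cell cannot be told apart.

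Between 8 h and 24 h a large part of the transcriptome moved in both directions. The 5 named genes for galacturonic acid use and 8 of the 9 named homogalacturonan enzymes were called lower at 24 h. Of 10003 genes tested, 4487 (44.9%) differed at an adjusted p under 0.05 in edgeR's quasi-likelihood test, 2349 higher (23.5%) and 2138 lower (21.4%). At least a 2-fold change was reached by 1848 of the higher (18.5%) and 1512 of the lower genes (15.1%), at least a 4-fold change by 997 and 641, and at least a 16-fold change by 324 and 172. The fold changes of genes with 0 reads in a group depend on the prior count of the fit. The median log2 fold change over all genes tested was 0.05, with a median standard error (SE) of 0.31. Among genes with a mean of at least 1000 FPKM over the 16 libraries, 63 of 166 (38.0%) were lower and 33 (19.9%) were higher. Below 10 FPKM, 14.9% of 2917 were lower and 20.7% were higher. Most of the 16 libraries were taken at 2 h or 8 h, so a gene high at those times can enter the upper bin through them. The bins are thus not independent of the direction of change. Of genes that had 0 reads in both 8 h libraries, 19 had at least 30 reads in both 24 h libraries, and 2 genes went the other way.

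**Figure D1:**
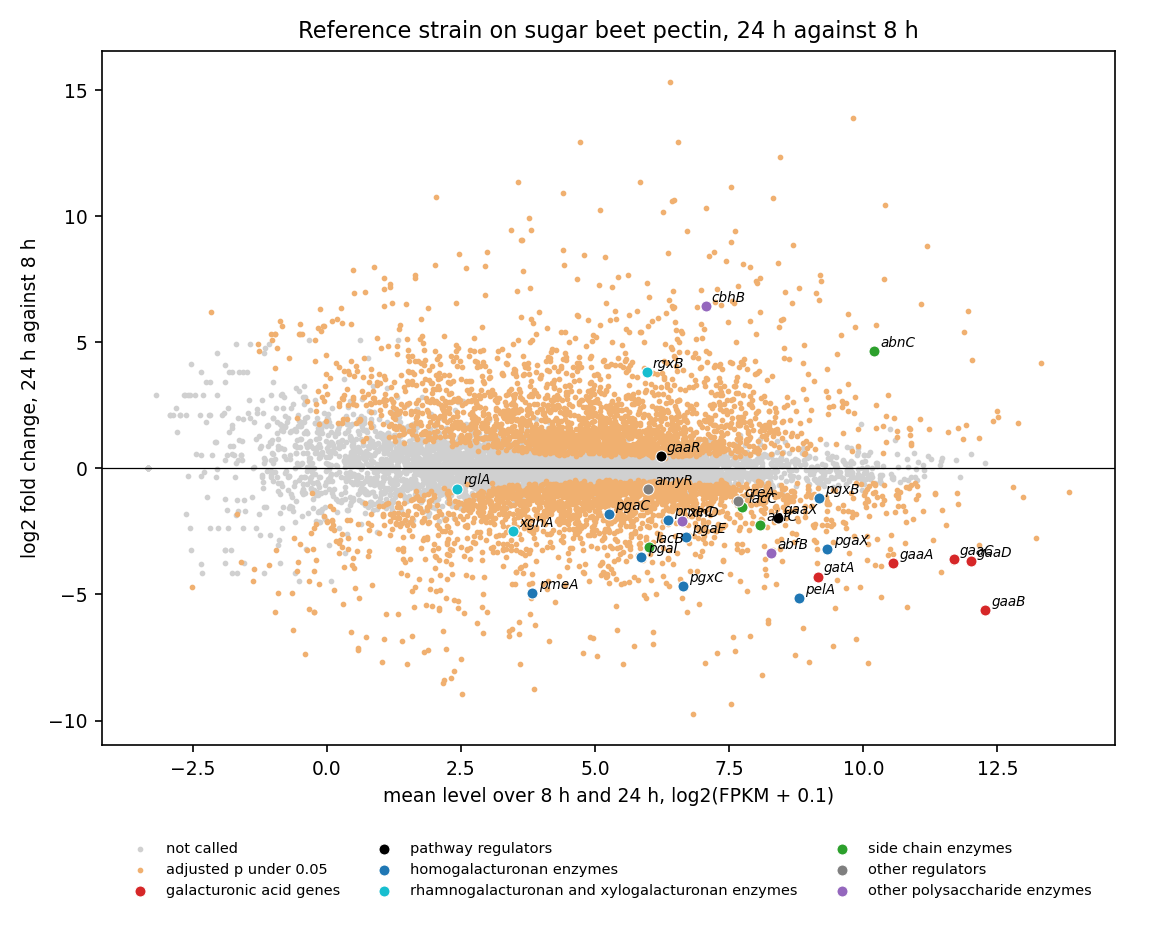
Log2 fold change of each tested gene at 24 h against 8 h in the reference strain (vertical axis), against its mean level over both times as log2(FPKM + 0.1) (horizontal axis), with called genes in orange and the 28 named genes labelled and coloured by group. Called genes lie on both sides of 0, while 22 of the 28 named genes are called lower and 3 (*rgxB*, *abnC* and *cbhB*) are called higher. Of all genes tested, 21.4% are called lower and 23.5% higher.

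The 5 genes of galacturonic acid uptake and breakdown fell together. Their names, like all names below, were recalled for the locus tags and not looked up. All 5 were called lower, with a median log2 fold change of -3.77 against 0.05 over all genes tested, and 21.4% of all genes tested were called lower. In both 24 h libraries each of the 5 lay under both 8 h libraries, a pattern that 33.8% of all genes tested showed. The list was drawn from publications on this regulator, so its direction is not independent evidence.

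*gatA* (NRRL3_00958), a galacturonic acid transporter, had 1134 and 1021 FPKM at 8 h and 44.8 and 71.0 FPKM at 24 h. The groups do not overlap, and the log2 fold change was -4.29 (SE 0.37, adjusted p = 1.8e-07 by edgeR). *gaaA* (NRRL3_05650), the D-galacturonic acid reductase that opens the pathway, had 2673 and 2899 FPKM at 8 h and 150 and 280 FPKM at 24 h (log2 fold change -3.77, SE 0.32, adjusted p = 1.6e-07 by edgeR). *gaaB* (NRRL3_06890), the L-galactonate dehydratase, showed the largest fall of the 5. It had 9480 and 9790 FPKM at 8 h and 163 and 254 FPKM at 24 h, a mean 46.2-fold lower, and moved from rank 4 to rank 853 of all genes by FPKM (log2 fold change -5.60, SE 0.49, adjusted p = 1.9e-07 by edgeR). *gaaC* (NRRL3_05649), the aldolase of the pathway, had 5736 and 6346 FPKM at 8 h and 357 and 698 FPKM at 24 h, and its log2 fold change was -3.59 (SE 0.38, adjusted p = 1.5e-06 by edgeR). *gaaD* (NRRL3_10050), the L-glyceraldehyde reductase of the last step, had 7654 and 7493 FPKM at 8 h and 396 and 847 FPKM at 24 h (log2 fold change -3.68, SE 0.37, adjusted p = 8.2e-07 by edgeR). In the 24 h pair, replicate 2 was the higher library for all 5 genes, by 1.56- to 2.14-fold, so the size of each fall differs between the 2 libraries while its direction does not. The *gaaD* change was -4.33 without replicate 2 of 24 h.

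At 2 h on pectin the same genes had stood higher than at 24 h in both libraries. *gaaB* had then 12287 and 11159 FPKM and ranked first of all genes, and *gaaD* had 11576 and 11249 FPKM and ranked second. *gatA* stood at 847 and 853 FPKM at 2 h, under its 8 h levels. The summed reads of the 5 genes made up 4.31% and 4.07% of the library at 2 h, 3.16% and 3.26% at 8 h and 0.124% and 0.236% at 24 h. Their mean share at 24 h was 0.18% ± 0.0794 (SD, n = 2), against 3.21% ± 0.0695 (SD, n = 2) at 8 h.

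**Figure D2:**
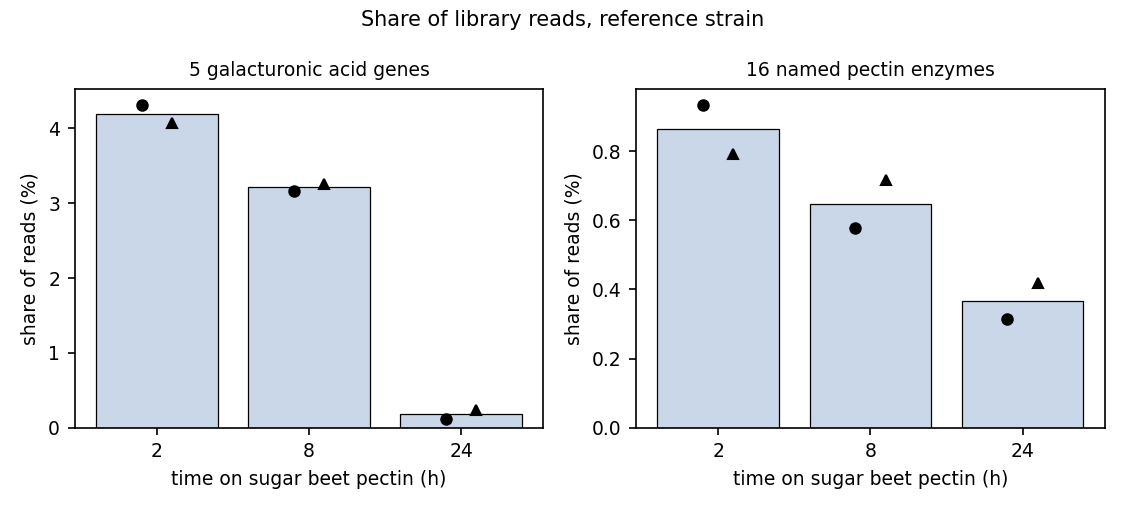
Share of all reads of a library, in percent, taken by the 5 galacturonic acid genes (left) and the 16 named pectin enzymes (right) in the reference strain at 2, 8 and 24 h on pectin, with bars for the mean of 2 libraries, circles for replicate 1 and triangles for replicate 2. The left share goes from 3.21% at 8 h to 0.18% at 24 h, and the right one from 0.648% to 0.367%. The 16 enzymes do not include the arabinofuranosidase gene *abfB*, which had 38277 and 44663 reads at 2 h.

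Of the regulators of the pathway, the repressor was called lower and the activator was not called. *gaaX* (NRRL3_08194), the repressor, had 526 and 540 FPKM at 8 h and 140 and 148 FPKM at 24 h, a log2 fold change of -1.96 (SE 0.22, adjusted p = 2.4e-06 by edgeR). *gaaR* (NRRL3_08195), the activator, had 58.1 and 62.9 FPKM at 8 h and 82.5 and 94.9 FPKM at 24 h. The *gaaR* groups do not overlap, as for the 41.4% of all genes tested with both 24 h libraries higher, and the change did not pass the test (log2 fold change 0.48, 95% interval -0.54 to 1.5, adjusted p = 0.44 by edgeR). Over 13 alternative settings that adjusted p lay between 0.07 and 0.79. The error behind the *gaaR* interval came from all 16 libraries of the fit, not from these times alone. *gaaR* had been at 234 and 215 FPKM at 2 h, and *gaaX* at 840 and 713 FPKM.

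**Figure D3:**
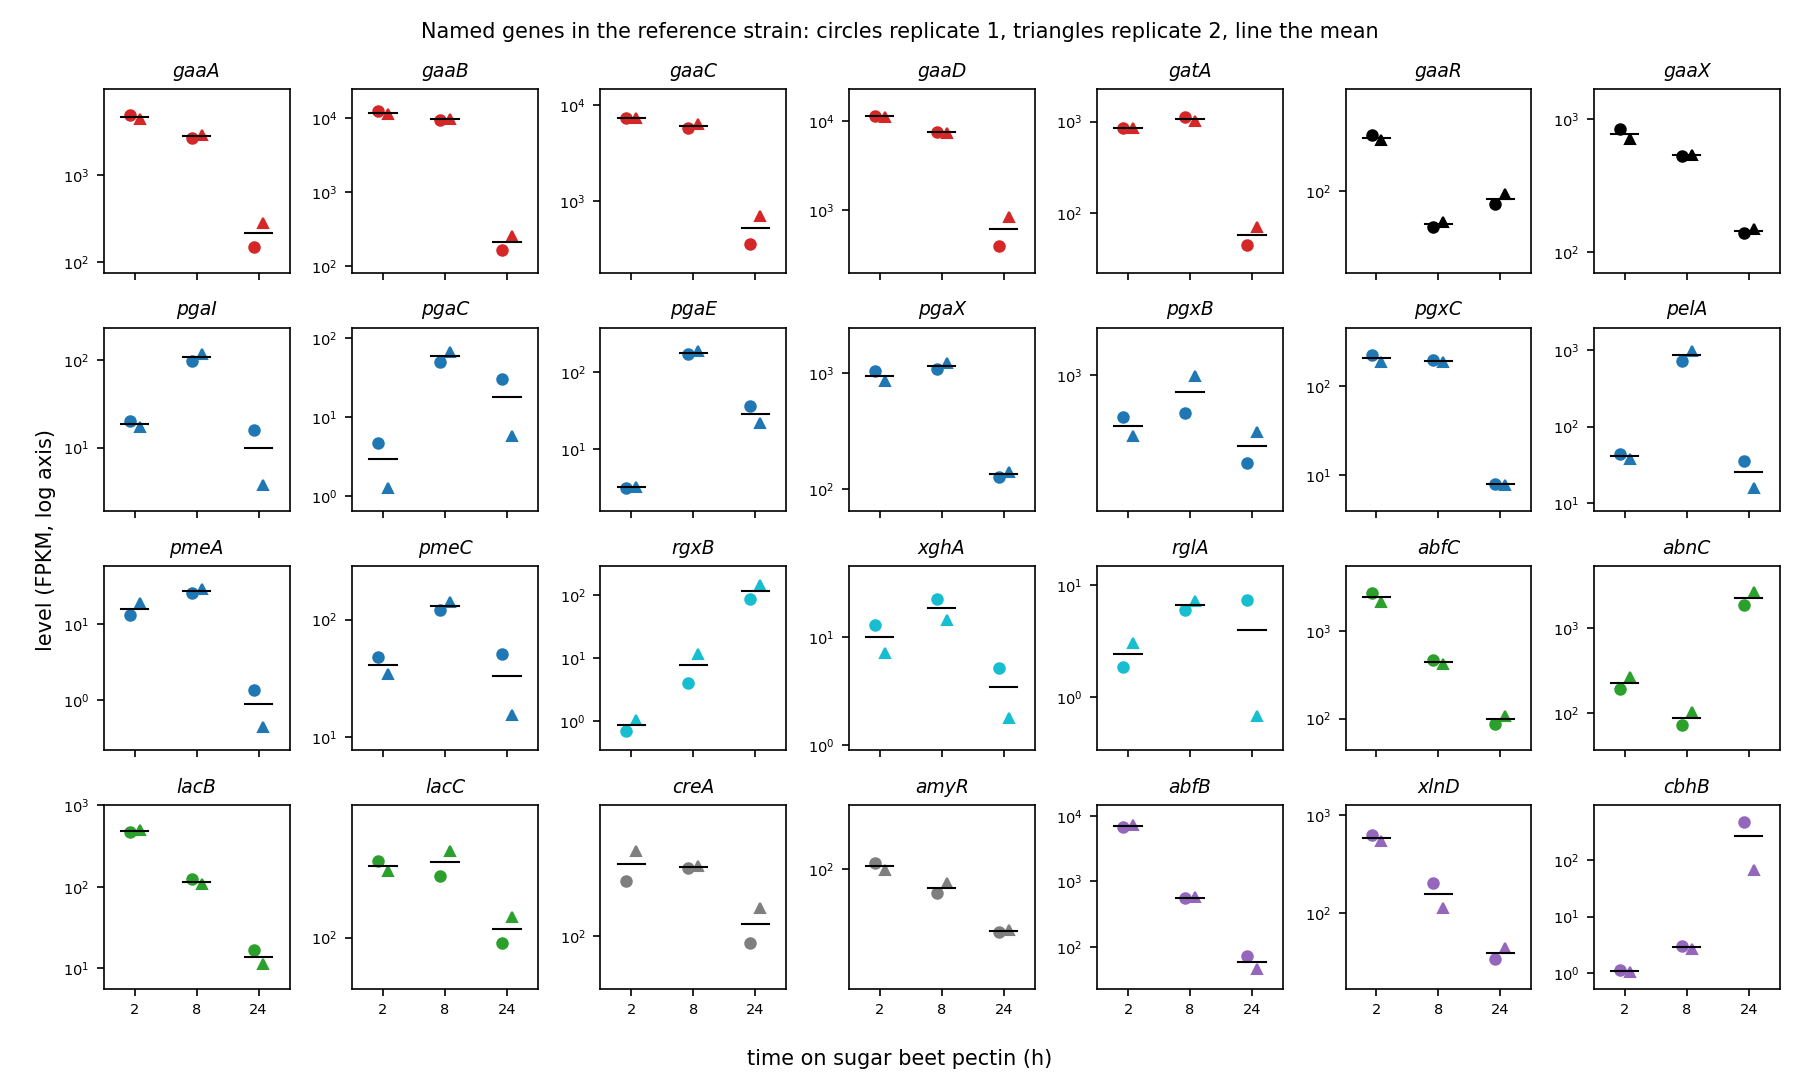
Levels in FPKM (vertical log axes, each with its own range) of the 28 named genes in the reference strain at 2, 8 and 24 h on pectin (horizontal axis), with circles for replicate 1, triangles for replicate 2 and a line for the mean. The galacturonic acid genes go from 2786 to 215 FPKM (*gaaA*) and from 9635 to 209 FPKM (*gaaB*) between 8 h and 24 h, while *abnC* goes from 86.7 to 2279 FPKM.

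Enzymes that act on homogalacturonan were lower at 24 h as well. Of the 9 named, 8 were called lower and *pgxB* was not, against 21.4% of all genes tested called lower, and their median log2 fold change was -3.19. All 9 had both 24 h libraries under both 8 h libraries, against 33.8% of all genes tested. These 9 are those with a recalled tag, not all such enzymes of the fungus, and they too come largely from work on this regulator.

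*pelA* (NRRL3_00965), a pectin lyase that cleaves methylated pectin, had 734 and 990 FPKM at 8 h and 35.4 and 15.5 FPKM at 24 h. Its mean was 33.9-fold lower at 24 h, and its log2 fold change of -5.16 (SE 0.36, adjusted p = 2e-08 by edgeR) was the largest fall of the 9. *pelA* and the 3 endopolygalacturonases, which cut the backbone at internal bonds, shared a time course with a peak at 8 h among the 3 times sampled. The peak was not particular to them. In *pgaX*, *pgxB*, *pmeA*, *pmeC*, *xghA* and *gatA* too, both 8 h libraries lay above both libraries of 2 h and of 24 h. At 2 h *pmeA* had 13.0 and 18.8 FPKM and *pmeC* had 47.9 and 34.8 FPKM. *pelA* had 43.2 and 38.1 FPKM at 2 h. *pgaE* (NRRL3_02835) had 3.08 and 3.23 FPKM at 2 h, 169 and 187 FPKM at 8 h and 35.7 and 21.5 FPKM at 24 h (24 h against 8 h, log2 fold change -2.71, SE 0.30, adjusted p = 2.5e-06 by edgeR). *pgaI* (NRRL3_02571) had 20.2 and 17.3 FPKM at 2 h, 97.2 and 116 FPKM at 8 h and 16.0 and 3.74 FPKM at 24 h (log2 fold change -3.50, SE 0.44, adjusted p = 9.3e-06 by edgeR). For *pgaE* the 24 h level thus stayed above the 2 h level in both libraries, whereas for *pgaI* both 24 h libraries lay under both 2 h libraries. Without replicate 1 of 24 h the changes were -4.90 for *pgaI* and -5.88 for *pelA*, and without replicate 2 that of *pgaI* was -2.80. *pgaC* (NRRL3_08805) had 49.9 and 67.0 FPKM at 8 h but 29.7 and 5.66 FPKM at 24 h, 5.24-fold apart, and its log2 fold change of -1.80 (SE 0.56, adjusted p = 0.016 by edgeR) rests on the 24 h library used. It was -1.05 without replicate 2 of 24 h (adjusted p = 0.1), -1.54 without replicate 2 of 8 h (adjusted p = 0.1) and -3.44 without replicate 1 of 24 h, and the adjusted p over 13 alternatives ran from 0.0003 to 0.1.

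The 3 exopolygalacturonases, which release galacturonic acid from chain ends, stood at 2 h closer to their 8 h levels. *pgxC* (NRRL3_05260) had 226 and 187 FPKM at 2 h, 194 and 189 FPKM at 8 h and 7.92 and 7.87 FPKM at 24 h. The 24 h libraries of *pgxC* agree within 1.01-fold, and its log2 fold change was -4.67 (SE 0.35, adjusted p = 3.6e-08 by edgeR). *pgaX* (NRRL3_03144) had 1050 and 846 FPKM at 2 h, 1079 and 1229 FPKM at 8 h and 128 and 139 FPKM at 24 h (log2 fold change -3.19, SE 0.80, adjusted p = 0.0041 by edgeR). Its SE was the largest of the 9 and came from all 16 libraries of the fit, not from these times alone. That adjusted p ran from 8e-05 to 0.065 over 13 alternatives and missed 0.05 only in limma on log2(FPKM + 0.1), where the change was -3.11. *pgxB* (NRRL3_08281) had 549 and 418 FPKM at 2 h, 583 and 987 FPKM at 8 h and 286 and 442 FPKM at 24 h. Its difference was not called (log2 fold change -1.19, 95% interval -2.63 to 0.26, adjusted p = 0.17 by edgeR). With only the 4 libraries of the comparison in the fit, its adjusted p was 0.022, and the range over 13 alternatives was 0.022 to 0.53. *pgxB* was the most abundant of the 9 homogalacturonan enzymes at 24 h, at a mean of 364 FPKM.

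Pectin methylesterases remove the methyl groups that shield the backbone from polygalacturonases. *pmeA* (NRRL3_08325) had 26.1 and 28.7 FPKM at 8 h, and 1.36 and 0.44 FPKM at 24 h, from 6 and 2 reads (log2 fold change -4.96, SE 0.59, adjusted p = 4.9e-06 by edgeR). *pmeC* (NRRL3_07470) had 121 and 141 FPKM at 8 h and 51.0 and 15.6 FPKM at 24 h, a log2 fold change of -2.04 (SE 0.39, adjusted p = 0.00051 by edgeR) that was -3.15 without replicate 1 of 24 h and -1.43 without replicate 2. For *pmeA* those values were -5.93 and -4.37. In the 24 h pair, replicate 1 was the higher library for 7 of the 9 homogalacturonan enzymes, whereas replicate 2 was the higher for the 5 galacturonic acid genes. Which 24 h library was the higher thus differed between these lists.

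Enzymes of the branched parts of pectin moved in both directions. *rgxB* (NRRL3_08631), predicted to release galacturonic acid from the ends of rhamnogalacturonan, was called higher. It had 3.98 and 11.6 FPKM at 8 h, from 18 and 50 reads, and 88.3 and 145 FPKM at 24 h, from 471 and 797 reads. The groups do not overlap, and the log2 fold change was 3.83 (SE 0.45, adjusted p = 4.9e-06 by edgeR), with 3.22 without replicate 1 and 4.82 without replicate 2 of 8 h. *xghA* (NRRL3_07469), a hydrolase of xylogalacturonan, went the other way, from 22.5 and 14.5 FPKM to 5.13 and 1.78 FPKM (log2 fold change -2.48, SE 0.56, adjusted p = 0.002 by edgeR), and -3.43 without replicate 1 of 24 h. *rglA* (NRRL3_00684), a rhamnogalacturonan lyase, had 5.94 and 7.25 FPKM at 8 h and 7.28 and 0.68 FPKM at 24 h. Its 24 h libraries were 10.7-fold apart and lay on either side of the 8 h libraries, and no change was called (log2 fold change -0.80, 95% interval -2.19 to 0.59, adjusted p = 0.34 by edgeR). Without replicate 1 of 24 h it was called lower, at -3.31 (adjusted p = 0.0015), within a range of 0.0015 to 0.92 over 13 alternatives.

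Among the 4 side chain enzymes, 3 were called lower and the arabinanase gene *abnC* (NRRL3_05407) was called higher. Of all genes tested, 21.4% were called lower and 23.5% higher. *abnC* had 72.5 and 101 FPKM at 8 h and 1893 and 2666 FPKM at 24 h, and moved from rank 1743 to rank 46 of all genes by FPKM. Its mean was 26.3-fold higher (log2 fold change 4.64, SE 0.45, adjusted p = 5.6e-07 by edgeR), and its 24 h level was also above the 191 and 264 FPKM of 2 h. *abfC* (NRRL3_10865), an arabinofuranosidase that removes single arabinose units, had 461 and 422 FPKM at 8 h and 87.1 and 108 FPKM at 24 h (log2 fold change -2.25, SE 0.27, adjusted p = 5.8e-06 by edgeR). The 2 arabinan enzymes among these 4 thus changed in opposite directions in the same libraries. A further arabinofuranosidase gene, *abfB*, is given below with the other polysaccharide enzymes and was called lower. The β-galactosidase gene *lacB* (NRRL3_02479), for the release of galactose, had 124 and 107 FPKM at 8 h and 16.6 and 11.1 FPKM at 24 h (log2 fold change -3.12, SE 0.29, adjusted p = 4.2e-07 by edgeR). *lacC* (NRRL3_11738), another β-galactosidase gene, had 255 and 374 FPKM at 8 h and 91.8 and 136 FPKM at 24 h (log2 fold change -1.54, SE 0.27, adjusted p = 0.00022 by edgeR). The fall of both was larger than the spread between replicates.

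Over the 16 named pectin enzymes together, the share of reads went from 0.578% and 0.717% at 8 h to 0.315% and 0.419% at 24 h. The arabinofuranosidase gene *abfB* is not among the 16, and had 3234 and 3093 reads at 8 h and 482 and 316 reads at 24 h. *abnC* carried much of the later share. Without it, the other 15 held 0.571% and 0.707% at 8 h and 0.134% and 0.164% at 24 h. The 10 most abundant genes of each library, whatever they were, held 7.03% and 7.17% of reads at 8 h and 7.90% and 8.06% at 24 h.

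Genes of other plant polysaccharides and of carbon regulation were measured through 5 further names. *creA* (NRRL3_05946), the carbon catabolite repressor, had 280 and 290 FPKM at 8 h and 89.7 and 152 FPKM at 24 h (log2 fold change -1.31, SE 0.29, adjusted p = 0.0019 by edgeR). *amyR* (NRRL3_07701), the activator of starch-degrading genes, had 74.9 and 84.2 FPKM at 8 h and 46.9 and 47.9 FPKM at 24 h (log2 fold change -0.82, SE 0.21, adjusted p = 0.0054 by edgeR). Both were called lower, but *amyR* missed the threshold without replicate 2 of 8 h, at -0.70 (adjusted p = 0.053, range over 13 alternatives 0.0015 to 0.053). *abfB* (NRRL3_03768), a secreted arabinofuranosidase, had 6817 and 7242 FPKM at 2 h, 565 and 566 FPKM at 8 h and 71.4 and 45.5 FPKM at 24 h, lower at each later time sampled. Its log2 fold change from 8 h to 24 h was -3.34 (SE 0.36, adjusted p = 1.7e-06 by edgeR). *xlnD* (NRRL3_02451), a β-xylosidase that acts on xylan fragments, had 203 and 113 FPKM at 8 h and 33.8 and 44.0 FPKM at 24 h (log2 fold change -2.08, SE 0.35, adjusted p = 0.00014 by edgeR). *cbhB* (NRRL3_02584), a cellobiohydrolase that breaks down cellulose, was called higher, from 3.09 and 2.72 FPKM at 8 h to 461 and 66.2 FPKM at 24 h. Its 24 h libraries were 6.97-fold apart, with 3349 and 494 reads, against 19 and 16 reads at 8 h, and its log2 fold change was 6.43 (SE 0.84, adjusted p = 1.4e-05 by edgeR). Both 24 h libraries were above both 8 h libraries. The change was 4.42 without replicate 1 and 7.23 without replicate 2 of 24 h.

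The genes with no name here were examined by their place, since the number in a locus tag follows the order of genes. Runs were built over tested genes only, with at most 1 other tested gene between members, and tags not tested were passed over. The longest run of genes called and at least 2-fold higher held 29 of the 34 genes tested from NRRL3_00131 to NRRL3_00170. The next longest held 18. Summed over the 29 genes, reads went from 1102 and 1570 at 8 h to 64809 and 74169 at 24 h, that is from 0.0292% and 0.0436% to 1.46% and 1.62% of the library. The median level of a member was 0.53 and 0.21 FPKM at 8 h and 202 and 127 FPKM at 24 h, so most of the run was hardly read at 8 h and well read at 24 h. Of the 29 members, 6 had 0 reads in both 8 h libraries and 13 had 3 or fewer in each. For those 6, the rise was at least 49.8-fold to at least 1681-fold against a floor of 3 reads per library. The median log2 fold change of the run was 8.55, and 7.99 with genes at 0 set to their bound. With no other tested gene allowed between members, the longest stretch was 20 tested genes, and tags not tested were passed over there too.

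**Figure D4:**
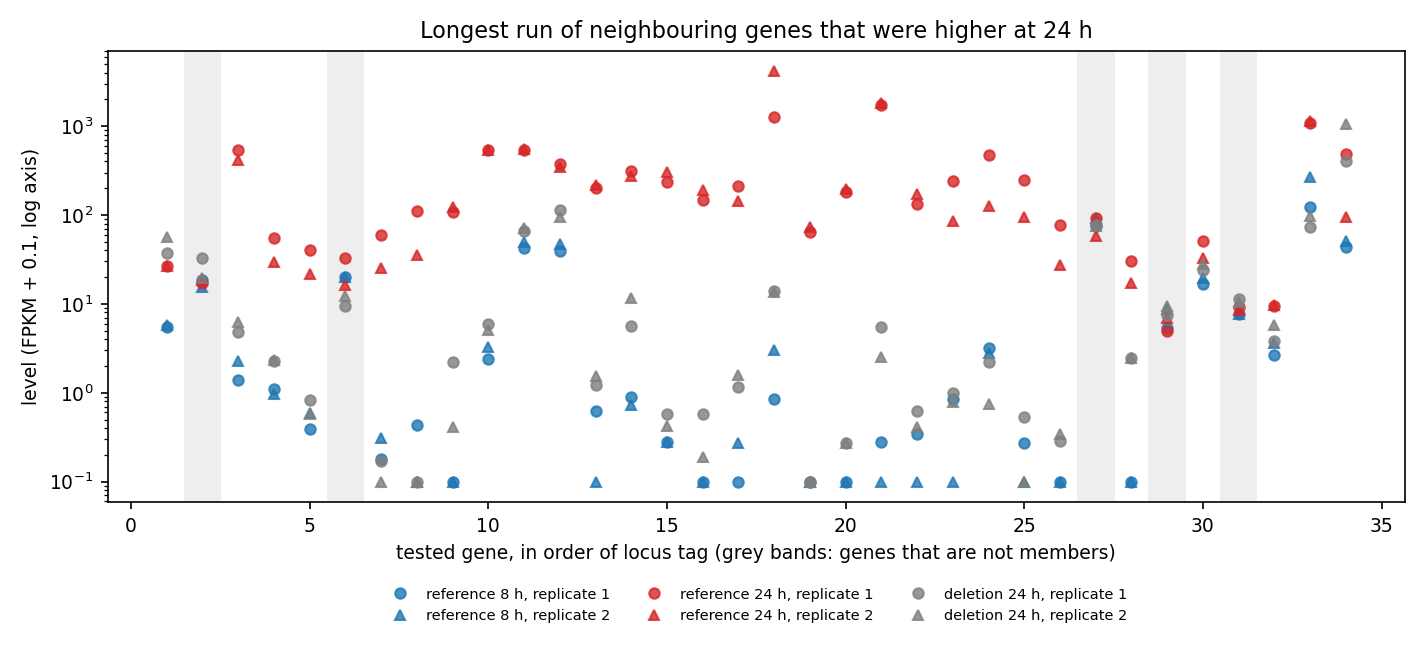
Level of each of the 34 tested genes in the longest run of rising genes, as FPKM + 0.1 on a log axis, in order of locus tag, with blue for the reference at 8 h, red for the reference at 24 h, grey for the deletion strain at 24 h, and circles and triangles for replicates 1 and 2. The 5 grey bands mark genes that are not members, and in 27 of the 29 members both red points lie above both grey points.

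The longest run of falling genes was shorter, with 8 of 8 genes tested from NRRL3_01205 to NRRL3_01212, and the next longest also held 8. Its summed reads went from 5455 and 4346 at 8 h to 875 and 660 at 24 h, and its median level from 128 and 89.6 FPKM to 12.1 and 7.88 FPKM. The median log2 fold change was -3.27. At 2 h the median member had stood at 22.6 and 17.4 FPKM, so the level of this run was highest at 8 h among the times sampled. With 1 other tested gene allowed between members, runs of at least 5 genes numbered 63 among the rising genes, with 449 genes. Among the falling genes they numbered 19, with 114 genes. These counts depend on the gap. With none allowed they were 26 runs with 183 genes and 9 with 55, and with 2 allowed 81 with 613 and 37 with 222. With 2 allowed, another run, of 9 genes, was the longest falling one. The runs are a description, and members were chosen by their change.

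The same interval was compared between strains to see which of these changes differed without GaaR. In the deletion strain 2902 genes (29.0%) were called, 14.0% of all genes tested higher and 15.0% lower. That count was 1714 without its replicate 2 of 24 h and 1835 without its replicate 2 of 8 h, and with libraries scaled by total count 69.9% of its calls were higher, against 48.2%. The difference between the strains' changes was called for 3391 genes (33.9%) in the interaction test of the same fit, with 18.5% of all genes tested more positive in the reference and 15.4% more negative. Scaling by total count turned this split, since 44.7% of the called differences were then more positive, against 54.4%. Of the 1848 genes at least 2-fold higher in the reference, 404 were at least 2-fold higher in the deletion strain too, which is 21.9% of the reference list and 39.0% of the 1037 genes (10.4% of those tested) of the deletion list. Of the 1512 lower genes, 321 were shared, 21.2% of the reference list and 30.1% of the 1067 (10.7% of those tested) of the deletion list. Opposite directions were also seen, as 355 genes were called higher in the reference and lower in the deletion strain with the difference called, and 207 the reverse. The 2 comparisons share no library.

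The galacturonic acid genes fell in the deletion strain as well, from a lower start. *gaaB* had 216 and 244 FPKM at 8 h and 68.5 and 62.8 FPKM at 24 h there, a log2 fold change of -2.08 (SE 0.42, adjusted p = 0.0015 by edgeR). The reference fell by more, and the difference was -3.52 (SE 0.59, adjusted p = 0.00025 by edgeR). At 24 h both reference libraries lay above both deletion libraries for *gaaA*, *gaaB*, *gaaC* and *gatA*. For *gaaB* the reference then had 163 and 254 FPKM. For *gaaD* the deletion strain's 404 and 414 FPKM lay within the reference range of 396 and 847 FPKM. Across unlike times, the 24 h reference range held the deletion strain's 8 h levels only for *gaaB* among the 5 genes. All 5 were called lower in the deletion strain, against 15.0% of all genes tested. *gaaC* missed the threshold there without replicate 2 of the deletion strain at 8 h (-0.78, adjusted p = 0.17) or at 24 h (adjusted p = 0.055), against -1.46, with a range of 0.00028 to 0.17 over 13 alternatives. For 4 of the 5 the difference between strains was called, against 33.9% of all genes tested, *gatA* being the exception (difference -0.44, SE 0.60, adjusted p = 0.62 by edgeR). *pelA* and *pgxC* differed most among the backbone enzymes. *pelA* had 8.71 and 9.33 FPKM at 8 h and 4.78 and 6.04 FPKM at 24 h without *gaaR*, with no change called (adjusted p = 0.078). That fall was called with only the libraries compared in the fit (-1.01, adjusted p = 0.036, range over 13 alternatives 0.036 to 0.3). The *pelA* difference from the reference was -4.15 (SE 0.53, adjusted p = 2.1e-05 by edgeR), and -4.87 without replicate 1 of the reference at 24 h. *pgxC* had 5.97 and 2.48 FPKM at 8 h and 7.13 and 9.29 FPKM at 24 h, so that the 24 h reference level of 7.92 and 7.87 FPKM lay within the deletion range. The *pgxC* difference was -5.37 (SE 0.51, adjusted p = 1.2e-06 by edgeR), and -6.13 without replicate 1 of the deletion strain at 8 h.

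The genes that rose in the reference behaved in several ways without *gaaR*. *abnC* was already at 1064 and 969 FPKM at 8 h in the deletion strain and at 2269 and 2462 FPKM at 24 h, so that the ranges of the strains overlapped at 24 h and not at 8 h, and its rise there was not called in the edgeR fit of all libraries (log2 fold change 0.95, adjusted p = 0.077). It was called in 5 of 13 alternatives (DESeq2, total count scaling, only the libraries compared, and limma with either pseudocount), with adjusted p from 0.00041 to 0.26 over the 13. The difference was 3.69 (SE 0.56, adjusted p = 0.00011 by edgeR). *rgxB* stayed at 0.47 and 1.69 FPKM and then 0.59 and 0.40 FPKM in the deletion strain, with a difference of 5.21 (SE 1.11, adjusted p = 0.0018 by edgeR) that missed the threshold without replicate 2 of the deletion strain at 8 h (4.01, adjusted p = 0.14, range over 17 alternatives 6.3e-06 to 0.14). It was 4.60 and 6.2 without replicates 1 and 2 of the reference at 8 h. *cbhB* was at 144 and 114 FPKM at 8 h and 42.2 and 151 FPKM at 24 h there, with a difference of 7.10 (SE 1.03, adjusted p = 7.3e-05 by edgeR). The *cbhB* difference was 5.09 and 7.90 without replicates 1 and 2 of the reference at 24 h, and 6.43 and 8.35 without those of the deletion strain at 24 h. Several genes fell by more in the deletion strain than in the reference. *abfB* went from 2440 and 2173 FPKM to 7.68 and 11.5 FPKM (difference 4.83, SE 0.50, adjusted p = 2.7e-06 by edgeR), and *abfC* from 467 and 501 FPKM to 38.2 and 35.7 FPKM (difference 1.73, SE 0.37, adjusted p = 0.0019 by edgeR).

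In the run of 29 rising genes, 4 were called higher and 3 lower in the deletion strain, where 14.0% of all genes tested were called higher and 15.0% lower. The difference was called, more positive in the reference, for 22 of the 29, against 18.5% of all genes tested, in members chosen for their rise in the reference. Of the 7 members with no called difference, 5 had 0 reads in both 8 h deletion libraries, so the fit gave no usable error for them. Those 5 had at least 35.3 FPKM in each 24 h reference library and at most 5.44 FPKM in each 24 h deletion library. The summed reads of the run took 0.242% and 0.184% of the deletion libraries at 8 h and 0.0853% and 0.146% at 24 h, but most of them came from the last 2 members by tag, singled out after their values were seen. These 2 held 7165 and 5770 reads at 8 h and 1776 and 4277 at 24 h. The other 27 went from 1346 and 1483 reads to 1805 and 1816, that is from 0.0383% and 0.0376% to 0.043% and 0.0435% of the library, so the direction of the sum turned without them. In the reference the same 27 members went from 0.0156% and 0.0179% at 8 h to 1.33% and 1.52% at 24 h. Of the 8 falling genes, 5 were called lower in the deletion strain, against 15.0% of all genes tested, and the difference was called, more negative in the reference, for 5, against 15.4%.

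**Figure D5:**
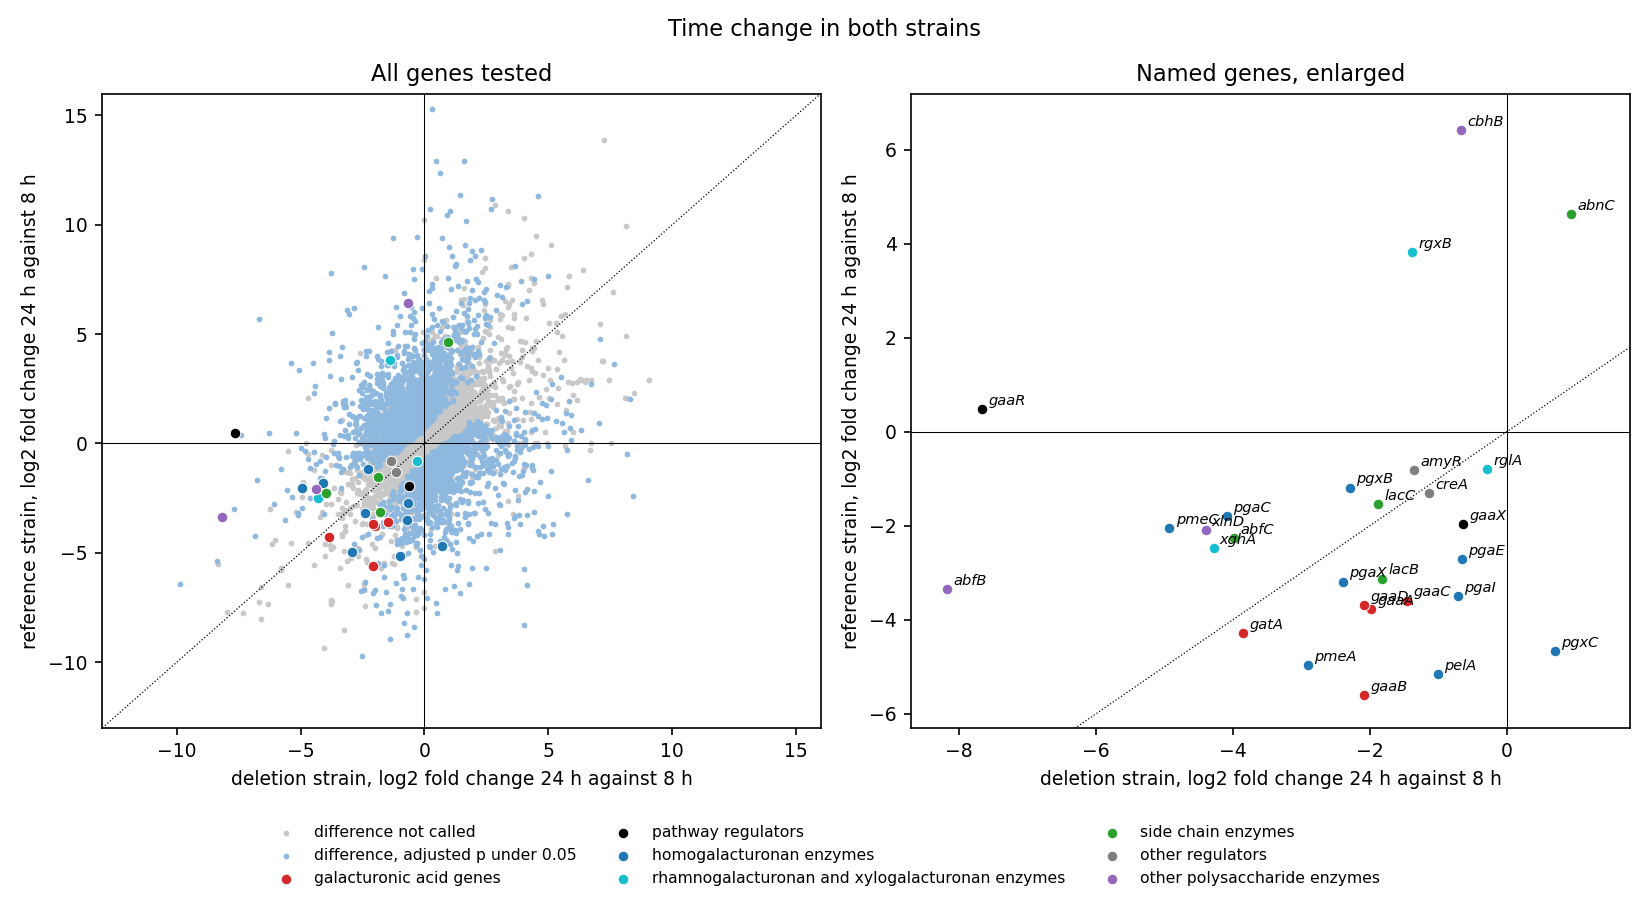
Log2 fold change from 8 h to 24 h in the reference strain (vertical axis) against that in the deletion strain (horizontal axis), for all genes tested (left, genes with a called difference in blue) and for the 28 named genes enlarged (right), with the dotted line where both changes are equal. *gaaB*, *pelA* and *pgxC* lie below the line and *cbhB*, *abfB* and *abnC* above it, and the point of *gaaR* is fitted against 0 reads in the 24 h deletion libraries.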

How the data were processed

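Expression was measured by RNA sequencing in 16 libraries (8 groups of 2), and the 4 reference libraries at 8 h and 24 h are the comparison. The authors deposited 1 table per library holding, for each gene, its expected count, its FPKM and its length, per the file headers. The expected counts were deposited without normalization, and 548 of 168277 values (0.3%) were not whole. The FPKM values were scaled by the authors by length and library total. As 100% of the lengths could be divided by 3, they are coding lengths. BWA, Bowtie2 and RSEM are named in the submitters' processing notes, and the genome build is not given in the sources used here. A gene not listed was taken as 0 reads.

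The rounded counts were fitted with edgeR 4.0.16 under R 4.3.3 by its two-sided quasi-likelihood test, after TMM scaling and filterByExpr, with all 16 libraries in 1 fit and 1 mean per group. This left 10003 genes, 8 residual degrees of freedom and a common dispersion of 0.041. P-values were adjusted by Benjamini-Hochberg over all genes tested, and the threshold was 0.05. The SE of a log2 fold change is its size divided by the square root of F. The interaction contrast tested the difference between strains. limma 3.58.1, DESeq2 1.42.0, other scalings and filters, fits on fewer libraries and a replicate block were alternatives. Nothing in the labels says that replicates were separate cultures. The p-values therefore measure only the spread between replicate libraries, and that spread may be technical. It is pooled for each gene over all 8 groups and drawn toward that of other genes. It is thus not the spread of the 4 compared libraries alone. The replicate numbers were not taken to pair samples. On simulated data of this comparison over 9875 genes, 100 genes were changed at each fold, far fewer than were called in the real data. There edgeR recovered 35% of genes changed 2-fold and 95% of those changed 4-fold, and called 5 unchanged genes. Tables were made with Python 3.11.15, pandas 2.3.3 and matplotlib 3.10.9.

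The members and lists were chosen with earlier results of these data known. The files hold NRRL3 locus tags, and the names were recalled for the tags and not looked up. All 23 names used in earlier work on these data are reported. Of 16 further candidates, 5 were used (*creA*, *amyR*, *abfB*, *xlnD* and *cbhB*), because their coding length lay within 15 bp (5 codons) of the genomic span of the gene recalled for them in another strain (RefSeq assembly ASM285v2). Coding lengths of that strain were not at hand, so only genes without introns could pass, and 11 were not used. The 23 earlier names did not have to pass. For *gaaC* among them, the coding length of 1008 bp exceeded the 966 bp span of its recalled locus. Of pairs of the recalled loci in use on 5 contigs of that assembly, 36 of 36 followed the order of the tags. Forward or reversed order was accepted, whichever suited the contig. The assembly carries 10 of the 28 names as symbols. Unnamed genes are given as counts, with the first and last tags of the longest run in each direction. No genome sequence was used.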

Additional observations from a re-analysis of the deposited data

Results flagged for a closer look

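For 18 of the 28 named genes the change from 8 h to 24 h differed between the strains in the interaction test of edgeR at an adjusted p under 0.05, against 33.9% of all genes tested. The 18 include *gaaR*, the deleted gene itself. As 23 of the 28 names come from earlier work on these data, the count is not independent evidence. Each value is the reference change minus the deletion change on the log2 scale. It was negative for *gaaA* (-1.79), *gaaB* (-3.52), *gaaC* (-2.14), *gaaD* (-1.60), *gaaX* (-1.33), *pgaI* (-2.79), *pgaE* (-2.06), *pgxC* (-5.37), *pelA* (-4.15) and *lacB* (-1.31). Those of these genes that fell in both strains fell further in the reference, from a higher level at 8 h. It was positive for *pmeC* (2.88), *abfC* (1.73), *abfB* (4.83) and *xlnD* (2.32), which were called lower in both strains and fell further in the deletion strain. It was also positive for *rgxB* (5.21), *abnC* (3.69) and *cbhB* (7.10), which were called higher in the reference and not called in the deletion strain in this fit, though the rise of *abnC* there was called in 5 of 13 alternatives. The value for *gaaR* (8.14) is fitted against 0 reads in both 24 h deletion libraries and depends on the prior count.

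Of these differences, 3 missed the threshold when 1 library was left out. *gaaD* gave -1.15 without replicate 1 of the reference at 24 h (adjusted p = 0.059) and missed it too without replicate 2 of the deletion strain at 8 h (-1.47, adjusted p = 0.064, range over 17 alternatives 0.0012 to 0.064), *rgxB* gave 4.01 without replicate 2 of the deletion strain at 8 h (adjusted p = 0.14, range 6.3e-06 to 0.14), and *lacB* missed it without replicate 2 of the reference at 24 h, replicate 1 of the reference at 8 h, replicate 2 of the deletion strain at 24 h or replicate 1 of the deletion strain at 8 h (highest adjusted p = 0.11, lowest 0.0023). Differences also moved in size, with the call kept, when 1 library was left out. Without replicate 1 of the reference at 24 h they were -4.18 for *pgaI*, -4.87 for *pelA*, 1.78 for *pmeC* and 5.09 for *cbhB*, and without replicate 2 they were -2.25 for *gaaD*, -2.09 for *pgaI*, 3.50 for *pmeC* and 7.90 for *cbhB*. Without replicates 1 and 2 of the reference at 8 h that of *rgxB* was 4.60 and 6.2. Without replicates 1 and 2 of the deletion strain at 24 h that of *cbhB* was 6.43 and 8.35. Without replicate 1 of the deletion strain at 8 h they were -6.13 for *pgxC* and 1.69 for *xlnD*, and without replicate 2 that of *gaaC* was -2.83.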

How the results depend on the processing

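Alternatives left the calls of the reference comparison between 4104 and 4523, against 4487, and leaving out 1 library gave 3304 to 3859. With the replicate block the counts were 4523 for the reference, 2922 for the deletion strain and 3403 for the difference, and same-numbered libraries of the 24 h and 8 h reference groups deviated together at a correlation of only 0.03. The deletion strain's count of 2902 became 1714 to 2064 when 1 of its libraries was left out, and the difference count of 3391 became 2628 to 3120. With a lone library in a group, that library is assumed to vary like the other groups. The split of calls turned with the scaling in the deletion strain, where 48.2% were higher under TMM and 69.9% under total counts, and in the difference, where 54.4% and 44.7% were more positive in the reference. In the reference it was 52.4% and 58.2%. The median log2 change of all genes went with it, from 0.01 to 0.29 in the deletion strain and from 0.05 to -0.15 in the difference. Of 364 alternative values of the named genes in the reference comparison, 357 kept their side of the threshold, 5 missed it (*pgaC*, *pgaX* and *amyR*), 2 passed it (*pgxB* and *rglA*), and none of the called ones changed sign. The uncalled value of *rglA* reached 0.07 without replicate 2 of 24 h. In the deletion strain *gaaX* missed the threshold in 9 of 13 alternatives. In the simulated data 35% of 2-fold changes were recovered by edgeR, with 100 genes changed at each fold. The real comparison had 4487 calls, so its cutoff on unadjusted p was less strict, and that share does not carry over to it.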
